A study of Danio rerio with 6 samples.

Results

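The genes described are the components of the Notch pathway in the deposited count table, 59 of its 23025 genes. They were taken by name, and the set was chosen with earlier results of these data known. They comprise 9 ligands, 4 receptors, 24 modifiers of the signal and 22 bHLH effectors (basic helix-loop-helix transcription factors of the *her*, *hes* and *hey* families). Names are spelled as in the table, where *her4_2* stands for *her4.2* and other tandem copies are written likewise.

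To look broadly for defects in mutants of *gas6*, whose secreted product binds receptor tyrosine kinases of the TAM family, the study sequenced polyA RNA from zebrafish hindbrains dissected at 48 hours post fertilization. There were 3 libraries from *gas6*-/- mutants of a homozygous line made with CRISPR/Cas9 and carrying the *olig2:EGFP* transgene, and 3 from wildtype controls of the Tg(*olig2:EGFP*)vu12 line, so both genotypes carried the transgene. Several *gas6* alleles with a premature stop codon were made, and the sources used here do not state which of them the libraries carried. Hindbrains were dissected under guidance of the green fluorescence and pooled for each library, and the controls came from the transgenic line itself. Effects of the *gas6* genotype therefore cannot be told apart from other differences between the lines or between the dissections.

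Notch signaling works between touching cells. A ligand of the Delta or Jagged type on one cell binds a Notch receptor on its neighbour, the receptor is cut by Adam10 and then by gamma-secretase, and its freed intracellular part enters the nucleus and joins Rbpj and Mastermind. This complex switches on *her* and *hey* genes, whose products repress proneural genes. In the hindbrain, newly forming neurons carry Delta ligands, and the neighbours that receive the signal stay as progenitors, which express *her4* and related genes.

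*gas6* itself was low in the mutants, with 5.32, 5.47 and 4.24 CPM (the count of a gene relative to the scaled total of its library) against 42.9, 37.7 and 36.8 CPM in wildtype (log2 fold change -2.97, SE 0.136, adjusted p = 7.24e-08, edgeR quasi-likelihood test with Benjamini-Hochberg adjustment over all genes tested, as for every adjusted p that follows). A negative log2 fold change is a lower level in *gas6* mutants, and SE is its standard error. Where a value in parentheses after a gene name has no label, it is a log2 fold change. Libraries held between 18376627 and 27025868 counts. Wildtype library 1 stood apart from the other libraries of its genotype on the second principal component, which held 9.74% of the variance. Levels of marker genes of several tissues differed between genotypes. Summed over 19 lens genes the level ran from 951 to 2230 CPM in *gas6* mutants, against 4.05 to 68.0 CPM in wildtype, and over 21 forebrain genes from 214 to 245 CPM, against 141 to 147 CPM. None of the 10 hindbrain genes found was at 0 in a genotype. Of these 10 genes 6 fell and 4 did not pass (median log2 fold change -0.47). The largest decreases were those of *egr2b* (-2.21) and *hoxb1a* (-1.41). *egr2b* was low in both genotypes, at 1.01 to 1.38 CPM in *gas6* mutants and 4.57 to 6.70 CPM in wildtype. The 4 that did not pass were *mafba* (0.17), *hoxd3a* (-0.03), *hoxa2b* (-0.10) and *hoxb3a* (-0.29). The 10 genes had a summed level of 809 to 903 CPM in *gas6* mutants and 964 to 1186 CPM in wildtype. The sum includes *hoxb3a*, which did not pass, at 373 to 412 CPM in *gas6* mutants and 411 to 519 CPM in wildtype. Of the lens genes all 19 rose (median log2 fold change 5.79), as did 16 of 20 forebrain genes (1.35) and 3 of 6 photoreceptor genes (1.91, with 12 of 18 listed genes found). Of 10 microglial genes 3 rose and 7 did not pass (median 0.15). Their summed level was 159 to 182 CPM in *gas6* mutants against 109.7 to 124 CPM in wildtype. Of these sums *apoeb* alone held 115, 85.0 and 98.9 CPM in *gas6* mutants and 54.4, 61.5 and 48.2 CPM in wildtype. Of 9 erythrocyte genes 2 rose and 1 fell (0.08), of 20 muscle genes 2 rose (0.21), and of 7 otic genes 2 fell (-0.30), while among all genes tested 16.7% were called higher and 16.6% lower. The summed muscle level was 66090 CPM in *gas6* mutant library 3 and 34108 and 39657 CPM in mutant libraries 1 and 2. In wildtype it was 41614 to 44776 CPM. The lens sum of 2230 CPM also came from mutant library 3. The part of these differences in the values of the Notch genes was not tested. Fewer cells of a type and less RNA per cell cannot be told apart in such pooled tissue.

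Most Notch genes that passed the test were lower in *gas6* mutants. Of the 59 genes, 56 passed the filter on low counts, and 32 of these fell at an adjusted p under 0.05 while 1, *heyl*, rose. Among all 20463 genes tested 16.6% were called lower and 16.7% higher, so the Notch genes were called lower in a share of 57.1% beside a background of 16.6%. More than 2-fold decreases numbered 14 (25% of those tested, against 3.59% of all genes), and *heyl* was the single increase of that size (6.06% of all genes). In 39 genes (69.6%, against 24.2% of all genes) each mutant library lay below each wildtype library. All 32 genes called lower were among these 39, so separated libraries of a called gene are not a further result. In 2 genes (against 24.8% of all genes) each mutant library lay above each wildtype library. The genotypes overlapped for 10437 of the 20463 genes tested, so a lack of overlap was common over all genes. The median log2 fold change was -0.42 over the 56 genes and 0.02 over all genes tested. The 3 genes that failed the filter were *her7* (3, 5 and 6 counts in *gas6* mutants and 8, 4 and 13 in wildtype), *her11* (5, 11 and 7 against 8, 21 and 6) and *DTX3L* (15, 12 and 7 against 8, 5 and 6). When wildtype library 1 was left out, 34 genes were called lower and 2 higher. With tandem copies summed, 53 genes were tested. Of these 29 were called lower, 12 of them by more than 2-fold, and 1 higher. With libraries scaled to their total counts alone, which moved the median of all genes to 0.16, 24 were called lower and 2 higher. The 8 calls lost under that scaling were those of *her13*, *her8_2*, *hes6*, *maml3*, *mib*, *ncstn*, *rbpja* and *rfng*.

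**Figure D1:**
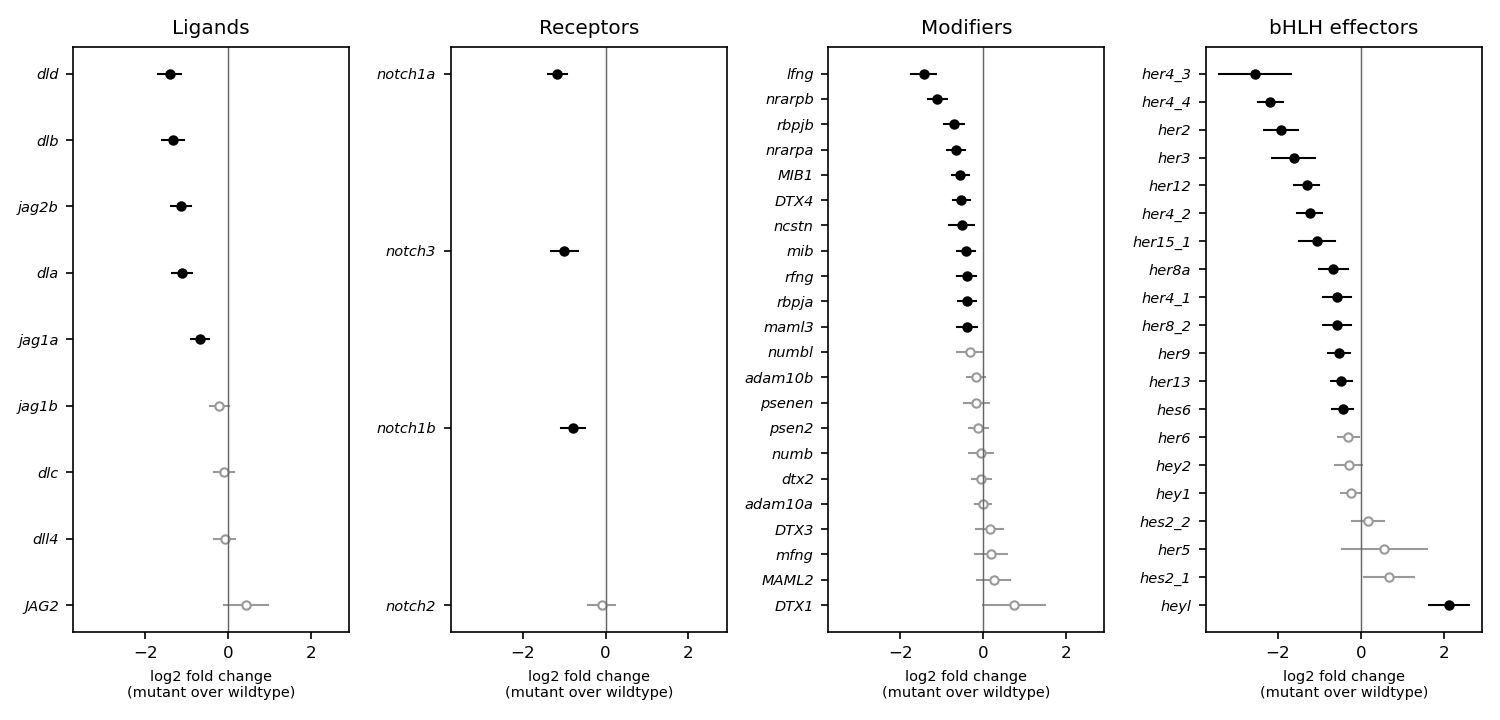
Log2 fold changes (x axis, *gas6* mutant over wildtype) of 55 of the 56 tested Notch genes, in panels by role, with 95% confidence intervals as bars. Filled black points passed an adjusted p of 0.05 and open grey points did not: 32 filled points lie left of zero and 1, *heyl*, lies right of it.

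Of the 9 ligand genes 5 fell (55.6%, against 16.6% of all genes) and none rose (against 16.7% of all genes). The median log2 fold change was -0.69. Of the 5 that fell, 4 did so by more than 2-fold (44.4% of the 9 genes, against 3.59% of all genes). Of these 5, *dld*, *dlb* and *dla* encode Delta proteins, which in the zebrafish neural tube are made by newly born neurons. *dld* had 157, 166 and 144 CPM in *gas6* mutants and 489, 357 and 396 CPM in wildtype (log2 fold change -1.41, SE 0.125, adjusted p = 1.03e-05). *dlb* had 184, 206 and 188 CPM in *gas6* mutants and 555, 417 and 483 CPM in wildtype (log2 fold change -1.33, SE 0.119, adjusted p = 1.03e-05). *dla* had 207, 221 and 180.4 CPM in *gas6* mutants and 478, 397 and 443 CPM in wildtype (log2 fold change -1.12, SE 0.113, adjusted p = 2.82e-05). In all 3 genes the mutant libraries lay close together and well below the lowest wildtype library, and the mutant level was 37.6, 39.7 and 46.1% of the wildtype level. Wildtype library 1 was the highest for each, and without it the log2 fold changes were -1.28 for *dld*, -1.23 for *dlb* and -1.06 for *dla*.

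*dlc*, a further Delta gene, did not pass. It had 69.3, 70.9 and 58.8 CPM in *gas6* mutants and 67.6, 66.4 and 78.4 CPM in wildtype (log2 fold change -0.09, 95% confidence interval -0.34 to 0.15, adjusted p = 0.540), and the genotypes overlapped. The interval of *dlc* lies above those of *dla*, *dlb* and *dld*, although the differences between these genes were not tested. *dll4*, a ligand best known from blood vessels, also overlapped, with 20.8, 20.3 and 23.4 CPM in *gas6* mutants and 24.7, 21.0 and 22.6 CPM in wildtype (log2 fold change -0.08, 95% confidence interval -0.33 to 0.17, adjusted p = 0.619). Of 18 endothelial genes tested, 2 were called lower and 2 higher, against 16.6% and 16.7% of all genes, with a median of -0.14.

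The Jagged ligands were divided as well. *jag2b* fell, with 53.4, 49.8 and 61.4 CPM in *gas6* mutants and 131, 108 and 123 CPM in wildtype (log2 fold change -1.14, SE 0.113, adjusted p = 2.5e-05), and *jag1a* fell less, with 56.0, 62.1 and 52.2 CPM against 88.6, 92.0 and 93.8 CPM (log2 fold change -0.69, SE 0.0998, adjusted p = 0.000340). Neither gene overlapped between genotypes (against 24.2% of all genes with each mutant library lower). *jag1b* did not pass (log2 fold change -0.21, adjusted p = 0.166), although its mutant libraries, at 41.6, 49.1 and 50.5 CPM, all lay below the wildtype libraries at 50.7, 58.7 and 53.5 CPM. A low-level gene listed as *JAG2* did not pass either (3.19, 3.68 and 3.62 CPM against 1.59, 2.86 and 3.36 CPM, log2 fold change 0.43, adjusted p = 0.202). In the RefSeq gene table the name *jag2* is an older one of *jag2b*, which has its own entry in the count table, so the identity of *JAG2* was not resolved.

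**Figure D2:**
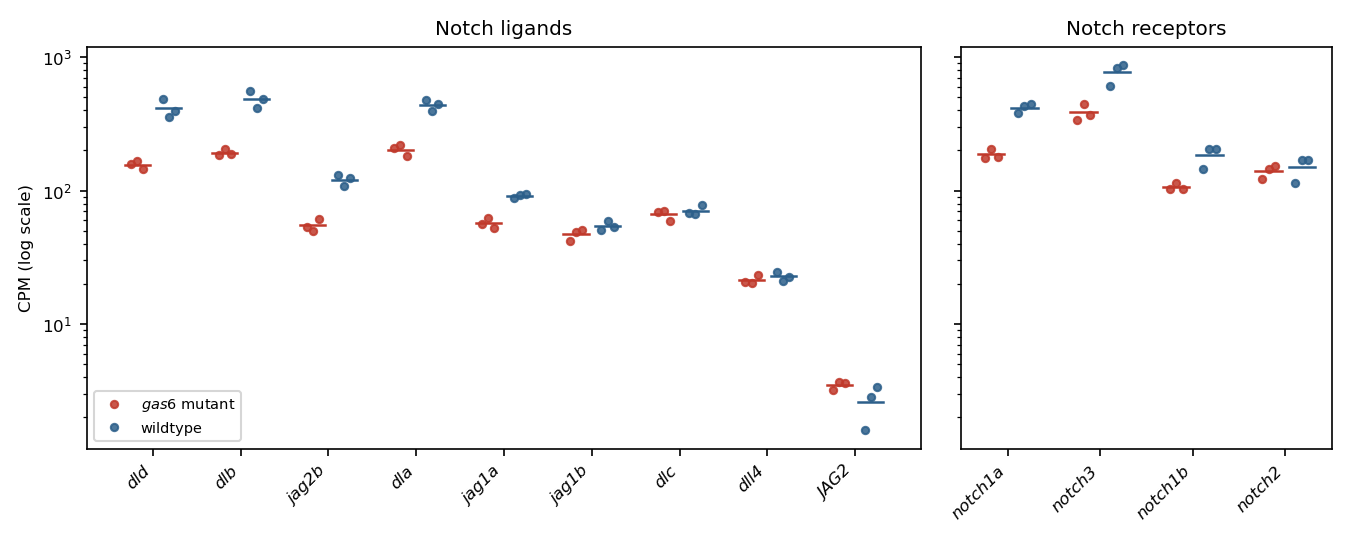
Levels of 9 Notch ligands (left) and 4 receptors (right) in CPM on a log axis, ordered within each panel by fold change. Red points are the 3 *gas6* mutant libraries, blue points the 3 wildtype libraries and bars their means. The genotypes are separated for *dld*, *dlb*, *jag2b*, *dla*, *jag1a*, *notch1a*, *notch3* and *notch1b*, and by a narrow gap for *jag1b*, which did not pass the test, and they overlap for *dlc*, *dll4*, *JAG2* and *notch2*.

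Of the 4 receptor genes, 3 fell (75%, against 16.6% of all genes). *notch1a* had 175, 206 and 179.5 CPM in *gas6* mutants and 379.9, 431 and 444 CPM in wildtype (log2 fold change -1.16, SE 0.108, adjusted p = 1.49e-05). *notch3*, which in zebrafish is expressed in neural progenitors and in the mural cells of vessels, had 340.3, 445 and 372 CPM in *gas6* mutants and 609.5, 829 and 870.0 CPM in wildtype (log2 fold change -0.996, SE 0.147, adjusted p = 0.000394). *notch1b* had 103, 115 and 103 CPM in *gas6* mutants and 146, 204 and 205 CPM in wildtype (log2 fold change -0.78, SE 0.131, adjusted p = 0.000872). The genotypes did not overlap for any of these 3 (against 24.2% of all genes with each mutant library lower). Wildtype library 1 was the lowest wildtype library for each. Without that library the log2 fold changes were -1.24 for *notch1a*, -1.14 for *notch3* and -0.94 for *notch1b*.

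*notch2* did not pass. It had 123, 144 and 154 CPM in *gas6* mutants and 114, 168 and 169 CPM in wildtype, with overlapping ranges (log2 fold change -0.10, 95% confidence interval -0.42 to 0.22, adjusted p = 0.640). Its mutant libraries lay above wildtype library 1 and below wildtype libraries 2 and 3. Without wildtype library 1 its log2 fold change was -0.27 (SE 0.102, adjusted p = 0.0675), and with libraries scaled to total counts it was 0.04.

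The bHLH effectors held both the largest decreases and the one increase among the Notch genes. Of 20 genes tested, 13 fell (65%, against 16.6% of all genes) and 1, *heyl*, rose (against 16.7% of all genes). Decreases of more than 2-fold numbered 7 (35%, against 3.59% of all genes). The decreases were led by the genes related to mammalian *Hes5*, which report active Notch signaling in neural progenitors: *her2*, *her12*, *her15_1* and 4 copies of *her4* all fell, 6 of the 7 by more than 2-fold, with a median log2 fold change of -1.30. Over the 13 other effectors tested 6 fell (46.2%, against 16.6% of all genes), 1 of them, *her3* (-1.62), by more than 2-fold. The median of these 13 was -0.30. This grouping was made with earlier results of these data known, and the 4 *her4* copies may share reads. The difference between the groups was not tested.

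*her4_4* had 15.2, 22.0 and 20.3 CPM in *gas6* mutants and 89.2, 77.7 and 95.1 CPM in wildtype (log2 fold change -2.18, SE 0.141, adjusted p = 9.73e-07), which is 22.1% of the wildtype level. *her4_2*, the copy that took most of the *her4* counts, had 83.2, 106 and 114 CPM in *gas6* mutants and 276, 211 and 226 CPM in wildtype (log2 fold change -1.23, SE 0.137, adjusted p = 5.42e-05). *her4_3* was low throughout, with 16, 12 and 8 counts in *gas6* mutants and 60, 42 and 90 counts in wildtype (log2 fold change -2.56, SE 0.403, adjusted p = 0.000612). No copy overlapped between genotypes (against 24.2% of all genes with each mutant library lower), and *her4_1* fell least (log2 fold change -0.57, adjusted p = 0.0145). That call was lost when *gas6* mutant library 1 or 2 was left out (adjusted p = 0.0577 and 0.0683).

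The *her4* copies are similar tandem genes and their estimated counts were fractional, so reads may have been divided among them and the value of any copy is uncertain. Summed over the 4 copies, the counts were 2422, 4257 and 4573 in *gas6* mutants and 9144, 7725 and 7712 in wildtype, or 123, 152 and 166 CPM against 417, 325 and 359 CPM. The sum fell (log2 fold change -1.32, SE 0.132, adjusted p = 2.6e-05). The copies did not keep their proportions. *her4_4* took 12.4%, 14.5% and 12.3% of the *her4* counts in *gas6* mutants and 21.4%, 23.9% and 26.5% in wildtype, whereas *her4_1* took 19.1%, 15.8% and 18.8% in *gas6* mutants and 11.6%, 10.6% and 9.54% in wildtype. These shares rest on how reads were assigned to similar copies and were not tested.

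By gene order in the RefSeq table of the GRCz12tu assembly, which is not the build of the counts, *her12* neighbours the *her4* copies and *her2* neighbours *her15_1*. *her12* had 33.3, 38.4 and 28.1 CPM in *gas6* mutants and 96.7, 72.1 and 77.4 CPM in wildtype (log2 fold change -1.30, SE 0.141, adjusted p = 4.43e-05). *her2* had 5.07, 6.65 and 6.62 CPM in *gas6* mutants and 30.5, 20.0 and 19.6 CPM in wildtype (log2 fold change -1.92, SE 0.188, adjusted p = 2.19e-05). Both genes were separated between genotypes, and wildtype library 1 was the highest library for each. *her15_1* fell as well, with 23.0, 32.7 and 34.6 CPM in *gas6* mutants and 85.0, 47.9 and 55.9 CPM in wildtype (log2 fold change -1.06, SE 0.202, adjusted p = 0.00199). Its ranges were apart, and without wildtype library 1 its log2 fold change was -0.79.

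*her3* differs from these genes in that Notch signaling represses it in the early zebrafish neural plate. It was lower in *gas6* mutants, with 1.12, 1.18 and 1.48 CPM against 4.97, 3.53 and 3.26 CPM in wildtype (log2 fold change -1.62, SE 0.239, adjusted p = 0.000383), and the ranges did not overlap. *her6* and *her9* are related to mammalian *Hes1* and *Hes4* and can be expressed without Notch in progenitors at neural boundaries. *her9* fell (-0.52, adjusted p = 0.00620), while *her6* did not pass (-0.30, adjusted p = 0.0613). The remaining decreases were those of *her8a* (-0.66), *her8_2* (-0.57), *her13* (-0.47) and *hes6* (-0.43), with adjusted p-values from 0.00779 to 0.0143. In mammals *Hes6* opposes *Hes1* and favours neuronal differentiation. The call for *her8_2* was lost without *gas6* mutant library 3 (adjusted p = 0.0562).

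The increase of *heyl*, a Hey family repressor, was large but from a low level. *heyl* had 4.61, 5.86 and 4.49 CPM in *gas6* mutants and 0.957, 1.34 and 1.07 CPM in wildtype (log2 fold change 2.14, SE 0.222, adjusted p = 3.31e-05), which is a 4.42-fold higher level. Its counts were 91, 164 and 124 in *gas6* mutants and 21, 32 and 23 in wildtype, and the lowest mutant library was well above the highest wildtype library. The related genes *hey1* and *hey2* did not pass (*hey1* -0.25, adjusted p = 0.0849, and *hey2* -0.29, adjusted p = 0.152). *hes2_1* had 1.77, 2.00 and 1.67 CPM in *gas6* mutants and 1.50, 1.13 and 0.746 CPM in wildtype without passing (log2 fold change 0.68, adjusted p = 0.0782), and passed without wildtype library 1 (adjusted p = 0.0281). *hes2_2* and *her5*, a gene of the midbrain-hindbrain boundary, overlapped between genotypes (log2 fold changes 0.18 and 0.57, adjusted p = 0.481 and 0.373). The *her5* counts were 5, 19 and 15 in *gas6* mutants and 7, 12 and 4 in wildtype, and at this depth the 95% confidence interval of its log2 fold change ran from -0.45 to 1.60.

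**Figure D3:**
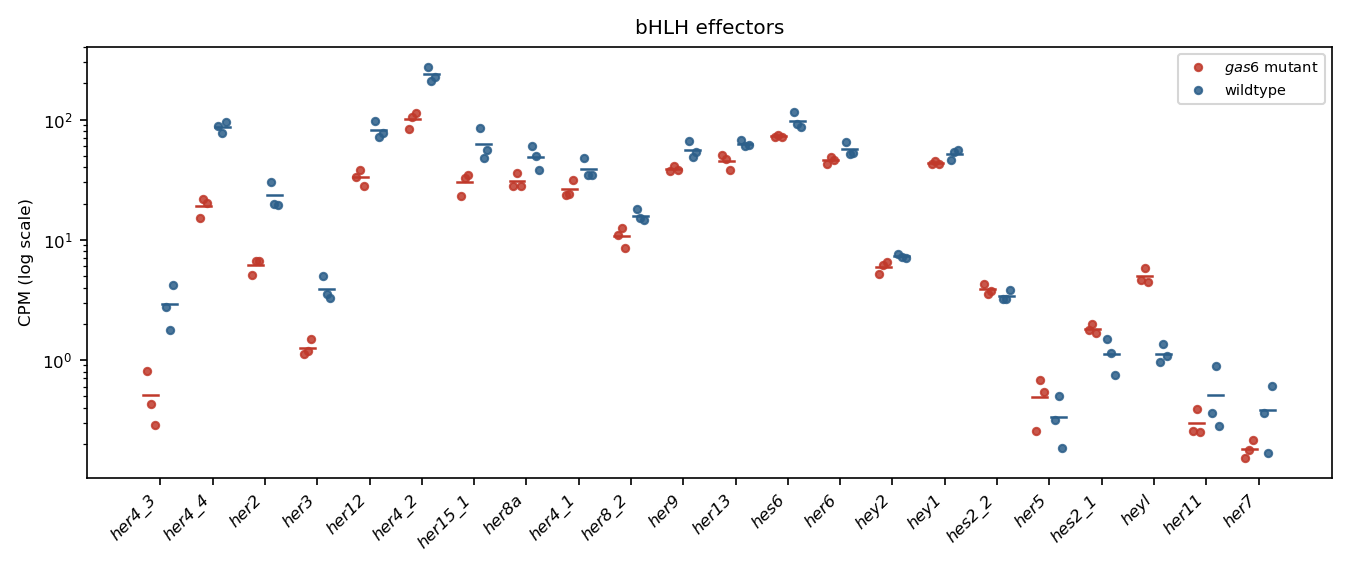
Levels of the 22 bHLH effectors in CPM on a log axis, ordered by fold change, with the untested *her11* and *her7* last. Red points are the 3 *gas6* mutant libraries, blue points the 3 wildtype libraries and bars their means. *her4_3* to *hes6* passed with lower mutant levels, and *heyl* stands out with mutant levels of 4.49 to 5.86 CPM above wildtype levels of 0.957 to 1.34 CPM.

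Of 23 modifiers tested 11 fell (47.8%, against 16.6% of all genes) and none rose (against 16.7% of all genes). Of the 11, 2 fell by more than 2-fold (8.7% of the 23, against 3.59% of all genes). The median log2 fold change was -0.32. *nrarpb* and *nrarpa* encode ankyrin-repeat proteins that are switched on by Notch and dampen it. *nrarpb* had 52.1, 51.9 and 46.0 CPM in *gas6* mutants and 95.6, 109 and 118 CPM in wildtype (log2 fold change -1.10, SE 0.109, adjusted p = 2.41e-05). *nrarpa* had 116, 129 and 104 CPM in *gas6* mutants and 187, 179 and 183 CPM in wildtype (log2 fold change -0.65, SE 0.102, adjusted p = 0.000581). In both genes the libraries of a genotype were close together and the genotypes were apart.

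Fringe glycosyltransferases add sugars to Notch receptors and so alter which ligands they respond to. *lfng* showed the largest decrease of any modifier, with 189, 209.6 and 245 CPM in *gas6* mutants and 669, 489.8 and 587 CPM in wildtype (log2 fold change -1.44, SE 0.136, adjusted p = 1.64e-05), and all mutant libraries were below the lowest wildtype library. *rfng*, which in zebrafish marks rhombomere boundaries, fell less (-0.40, adjusted p = 0.0112). *mfng* did not pass (0.20, adjusted p = 0.417), and its ranges overlapped.

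Ubiquitin ligases of the Mind bomb type let the signaling cell pull in its ligand. Rows named *MIB1* and *mib* are both in the table, while RefSeq lists *mib* as an older name of *mib1*, so which gene or gene part each row counts was not resolved. *MIB1* had 85.6, 88.2 and 76.8 CPM in *gas6* mutants and 128, 116 and 123 CPM in wildtype (log2 fold change -0.55, SE 0.0975, adjusted p = 0.00130), and *mib* fell too (-0.41, adjusted p = 0.00881). Of the 4 Deltex ligases tested, which regulate Notch trafficking, 1 fell (25%, against 16.6% of all genes). This was *DTX4*, with 128, 145 and 137 CPM in *gas6* mutants and 198, 196 and 197 CPM in wildtype (log2 fold change -0.53, SE 0.0929, adjusted p = 0.00123). The name *DTX4* had no match in RefSeq, so the identity of this row was not resolved. *DTX1*, *dtx2* and *DTX3* did not pass, and their log2 fold changes were 0.75, -0.05 and 0.16, although *DTX1* passed without wildtype library 2 (1.13, adjusted p = 0.0436). The *DTX1* counts were low and overlapped, at 22, 24 and 35 in *gas6* mutants and 10, 22 and 11 in wildtype.

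In the nuclear complex, the DNA-binding partners fell. *rbpjb* had 16.7, 15.1 and 15.5 CPM in *gas6* mutants and 24.6, 24.8 and 27.6 CPM in wildtype (log2 fold change -0.71, SE 0.111, adjusted p = 0.000561), without overlap. *rbpja* (-0.39, adjusted p = 0.0124) and the coactivator *maml3* (-0.39, adjusted p = 0.0178) fell less, and *MAML2* did not pass (0.25, adjusted p = 0.312). The *rbpja* call was lost without *gas6* mutant library 2 (adjusted p = 0.0544). The *maml3* call was lost without *gas6* mutant library 1 or 2 or wildtype library 3 (adjusted p = 0.0668, 0.0753 and 0.0833).

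Of the 6 genes for the proteases that cut the receptor, 1 fell (16.7%, against 16.6% of all genes). This was *ncstn*, a subunit of gamma-secretase (-0.51, SE 0.140, adjusted p = 0.0144), although the call was lost without *gas6* mutant library 3 (adjusted p = 0.0568). *psen2* and *psenen*, also of gamma-secretase, did not pass, and their log2 fold changes were -0.12 and -0.16. *adam10a* had 141, 138 and 133 CPM in *gas6* mutants and 135, 135 and 141 CPM in wildtype (log2 fold change 0.0061, 95% confidence interval -0.19 to 0.20), and *adam10b* did not pass (-0.17, adjusted p = 0.211). Nor did *numb* and *numbl*, which encode adaptors that inhibit Notch (log2 fold changes -0.05 and -0.32, adjusted p = 0.787 and 0.0957).

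**Figure D4:**
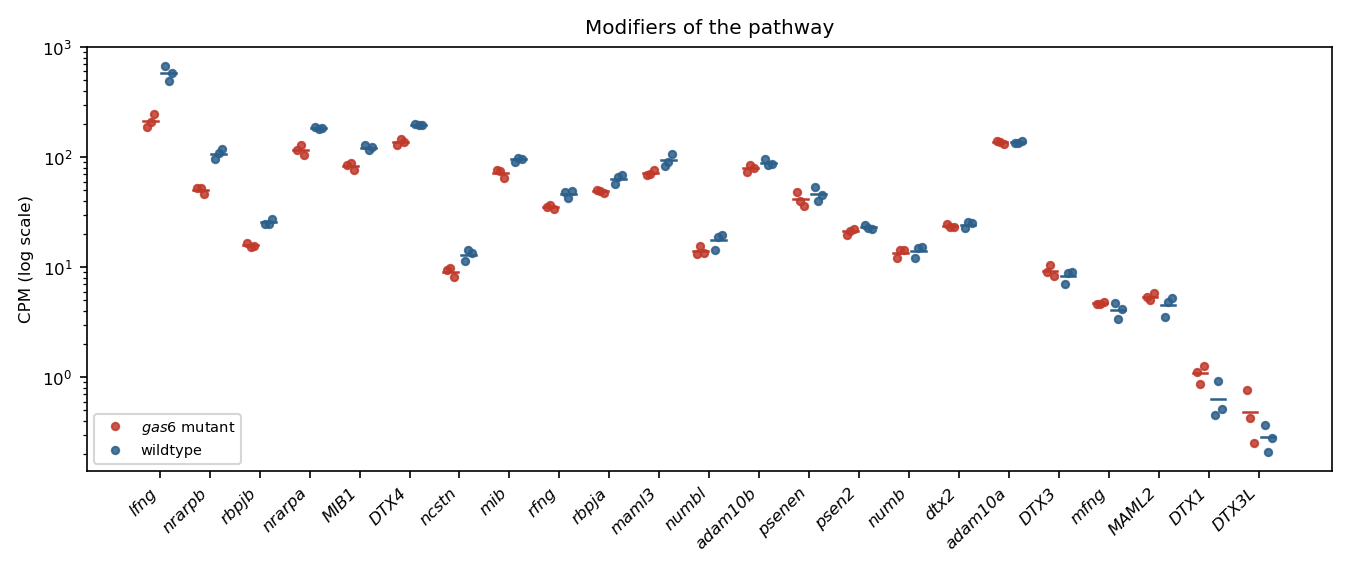
Levels of 23 of the 24 modifiers in CPM on a log axis, ordered by fold change, with the untested *DTX3L* last. Red points are the 3 *gas6* mutant libraries, blue points the 3 wildtype libraries and bars their means. The 11 genes from *lfng* to *maml3* passed with lower mutant levels, and *adam10a* lies at 133 to 141 CPM in *gas6* mutants and 135 to 141 CPM in wildtype.

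Gene pairs named with a final a and b were compared by their within-library ratio, which does not depend on scaling. The *jag1a* to *jag1b* ratio was lower by 0.48 on the log2 scale in *gas6* mutants (mean 0.27 ± 0.199, against 0.75 ± 0.0926 in wildtype, SD, n = 3 each). The *notch1a* to *notch1b* ratio was lower by 0.40 (mean 0.80 ± 0.0435 in *gas6* mutants, against 1.19 ± 0.164 in wildtype). The *nrarpa* to *nrarpb* ratio was higher by 0.44 in *gas6* mutants and that of *rbpja* to *rbpjb* by 0.32. For *dla* to *dlb* and *adam10a* to *adam10b* the ratio was higher by 0.21 and 0.18. In all 6 pairs the genotypes did not overlap, as was so for 50.1% of the 1881 such pairs in the table. The two-sided exact permutation test gave p = 0.1 for each of the 6 pairs (0.1 after Benjamini-Hochberg adjustment), which is the smallest value that 3 against 3 libraries allow.

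Other genes of the pathway were listed by hand. Of 30 tested, 8 fell (26.7%, against 16.6% of all genes) and 4 rose (against 16.7% of all genes). The median log2 fold change was 0.01. Those that fell were the coactivators *ep300a* (-0.67) and *ep300b* (-0.43), the Groucho corepressors *gro2* (-0.63) and *tle2* (-0.54), the cofactor *snw1* (-0.46), the receptor-modifying enzymes *pofut1* (-0.45) and *poglut1* (-0.44) and the gamma-secretase gene *aph1b* (-0.34). *dner*, which encodes a neuronal Notch-binding protein, rose (6.34, 7.33 and 7.89 CPM in *gas6* mutants and 2.37, 4.28 and 3.64 CPM in wildtype, log2 fold change 1.07), as did *itcha* (0.68), *neurl1aa* (0.56) and *aes* (0.41).

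Proneural genes are the targets that Her proteins repress, and their products in turn activate Delta genes. In a list of 16 proneural and early neuronal genes 9 fell (56.2%, against 16.6% of all genes) and 2 rose (against 16.7% of all genes). The median log2 fold change was -0.46. Named after their values were seen, the genes that fell were *insm1b* (-1.10), *coe2* (-1.02), *ascl1a* (-0.88), *ascl1b* (-0.87), *neurog1* (-0.78), *insm1a* (-0.67), *neurod4* (-0.61), *onecut1* (-0.54) and *sox11b* (-0.38), and those that rose were *SRRM4* (0.96) and *neurod* (0.56).

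Genes of dividing and progenitor cells differed between genotypes as well, and their part in the decrease of the Notch genes was not tested. For comparison, 16.6% of all genes tested were called lower and 16.7% higher. All 28 DNA replication genes fell, with a median log2 fold change of -0.75 and a summed level of 2827 to 2993 CPM in *gas6* mutants against 4515 to 5408 CPM in wildtype. Of 19 neural progenitor genes 11 fell and 5 rose (median -0.44), with a summed level of 2628 to 2913 CPM in *gas6* mutants and 3686 to 4717 CPM in wildtype. Of 18 genes of differentiated neurons 8 rose and 2 fell (median 0.35), with a summed level of 1905 to 2094 CPM in *gas6* mutants and 1461 to 1589 CPM in wildtype. None of the members of these lists was at 0 in all libraries of a genotype.

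**Figure D5:**
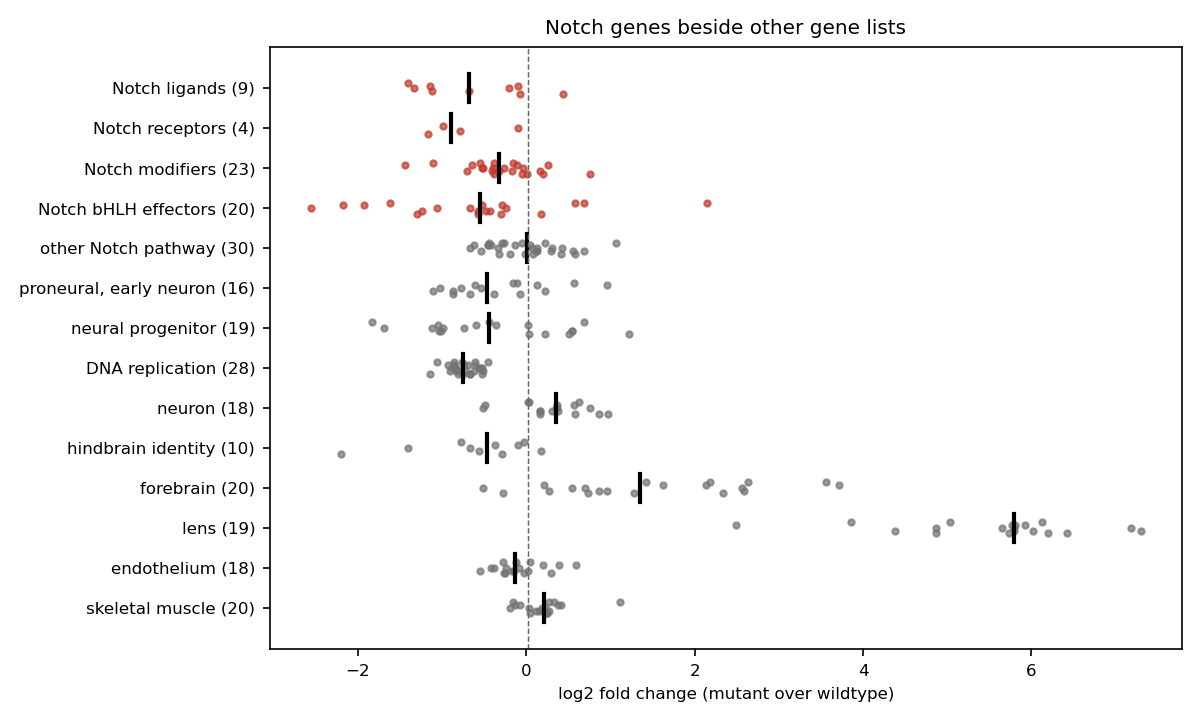
Log2 fold changes (x axis, *gas6* mutant over wildtype) of the Notch genes by role (red) and of other gene lists (grey), with the number of genes tested in parentheses. Each point is a gene, black bars are medians and the dashed line is the median of all genes tested (0.02). The Notch ligands, receptors and effectors have medians of -0.69, -0.89 and -0.55, DNA replication genes -0.75 and lens genes 5.79.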

How the data were processed

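The reads were processed by the authors through Dolphin, a web interface, and the submitters' processing notes name RSEM 1.2.28, DESeq2, FastQC and the builds GRCz10 and danRer7 without roles. They deposited 1 table of estimated counts per gene and library, not normalized, whose lowest row total was 11. Of the 59 Notch genes 43 had fractional counts in some library, as RSEM can give where a read fits more than 1 gene. Also deposited, and not used, were 3 columns of the authors' own comparison, namely an adjusted p-value, a log2 fold change and a linear fold change.

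Estimated counts were rounded, filtered with filterByExpr (minimum count 10, minimum total 15; 20463 genes kept), scaled by TMM and tested with glmQLFTest in edgeR 4.0.16 under R 4.3.3, with genotype from the sample titles as the only factor. Benjamini-Hochberg adjustment ran over all genes tested. The study's criterion was a more than 2-fold change. There were 4 residual degrees of freedom. Library totals were 18376627 to 27025868 counts, giving log2 fold changes a median SE of 0.154. CPM levels used TMM-scaled library sizes and were not divided by gene length, so they are not compared between genes. No duplicated library was found (within a genotype, chi-square divided by its degrees of freedom was at least 6.67). The labels do not say whether the pools came from separate clutches, so p-values measure the spread between these libraries, which may be technical. The scripts were tested on simulated data with few changed genes, as many raised as lowered. That test does not bear on the choice of scaling.

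Ratios used a pseudocount of 1 count. Alternatives were DESeq2 1.42.0, limma 3.58.1 (voom), other scalings and filters, a limit of 0.01, summed tandem copies, a replicate block and leaving out each library. Names matched RefSeq (GRCz12tu) for 57 of 59 genes, all but *DTX4* and *DTX3L*. Per-library values were given for up to 6 called genes per role, by size of change, and for any gene called against its group. *her4_2*, *her4_1*, *her15_1* and the uncalled genes whose library values are printed were added. The values of 1 modifier are not reported here, although it is included in the counts and medians. The genes, roles and lists were chosen with earlier results of these data known.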

Additional observations from a re-analysis of the deposited data

How the results depend on the processing

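The number of Notch genes called lower ranged from 24 to 32 over the 10 settings other than leaving out a library, and was 29 to 34 over the 6 fits without 1 library. Of the 32 genes called lower 23 kept the call in every setting run for them, as did *heyl* for its increase. DESeq2 and limma voom each called 32 lower and 1 higher. Scaling to total counts moved the median of all genes by more than 0.1, to 0.16, and the genes called lower and higher among all tested to 9.84% and 23.6%. Under it 24 Notch genes were called lower and 2 higher, *hes2_1* being added, and uncalled genes changed sign: *dlc* (0.052), *dll4* (0.067), *dtx2* (0.10), *notch2* (0.037), *numb* (0.086) and *psen2* (0.030). *adam10a*, close to 0, changed sign with DESeq2 size factors in edgeR (-0.0024), the DESeq2 test (-0.0024) and no filter (-0.0019). Without 1 library *adam10a* ranged from -0.020 to 0.031 and *numb* from -0.16 to 0.018. Without 1 library the number called higher was 1 to 2, as was the number more than 2-fold higher, where *DTX1* was added without wildtype library 2. The number more than 2-fold lower was 10 to 15 over the other settings and 13 to 15 without 1 library. Without 1 library the *her4* sum had log2 fold changes of -1.42 to -1.21 and *gas6* of -3.04 to -2.86. Calls were gained without 1 library for *her6* (without wildtype library 2, adjusted p = 0.0481) and for *hey1* and *numbl* (without wildtype library 1, adjusted p = 0.0120 and 0.0126). At a limit of 0.01 the calls of *her4_1*, *her8_2*, *hes6*, *maml3*, *ncstn*, *rbpja* and *rfng* were lost and 25 genes remained. The cause of these shifts was not tested. With the replicate block, 32 Notch genes were called lower and 1 higher and no call changed. The numbers did not pair the libraries (correlations of same-numbered deviations 0.016, -0.068 and 0.035). Counts under about 20 per library, as for *her5*, *her7*, *her11* and *DTX3L*, limit what could be detected.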

Other observations

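Wildtype library 1 was the highest of the 3 wildtype libraries for 14 of 22 bHLH effectors and the lowest for 2. It was the highest for 5 of 9 ligands and the lowest for 3, the highest for 10 of 24 modifiers and the lowest for 12, and the lowest for all 4 receptors. Differences between the roles were not tested. Among the 20463 genes tested it was the highest for 40.4% and the lowest for 41.2%. For instance, the *notch3* level was 609.5 CPM in wildtype library 1 and 829 and 870.0 CPM in the other two, while the *her2* level was 30.5 CPM in wildtype library 1 and 20.0 and 19.6 CPM in the other two. The genotypes did not overlap for either gene (against 24.2% of all genes with each mutant library lower).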
